A study of Mus musculus with 12 samples.

Results

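The immediate early genes are 10 genes that cells transcribe within minutes of a stimulus without first making new protein, namely *Fos*, *Fosb*, *Junb*, *Egr1*, *Egr2*, *Egr3*, *Arc*, *Npas4*, *Nr4a1* and *Ier2*. They were taken by symbol from the 24480 genes of each count table. All 10 were found in both tables and all 10 passed the filter on low counts, which kept 15602 genes of the *Sox2* table and 15600 of the *Nr2f1* table. In neurons, synaptic activity and calcium entry reach these genes through kinases that act on the transcription factors CREB and SRF, which already sit at their promoters. Most of the members encode transcription factors, *Arc* encodes a protein of the postsynaptic side that takes glutamate receptors off the surface, and their RNAs decay quickly. Handling, dissection and dissociation of tissue are also known to induce them, so that their level in a sample is a record of the tissue and of how it was collected.

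RNA-seq was performed on the dorsolateral geniculate nucleus (dLGN), the visual relay nucleus of the thalamus, dissected at postnatal day 0 (P0) in mice of 2 lines. *Sox2* mutants were Sox2 flox/flox with Ror-alphaCre, and their controls were Sox2 flox/flox or Sox2 flox/+ with no Cre. *Nr2f1* mutants were Nr2f1 flox/flox with Ror-alphaCre, and for their controls the label names the same alleles together with the absence of Cre, while the study's methods describe littermates without Cre that were flox/flox or flox/+. Each of the 4 groups comprised 3 libraries, and a library held the pooled dLGNs of 3 animals that shared a genotype.

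Cre is expressed from the *Rora* locus in this allele, which places the deletion in postmitotic neurons of the sensory thalamus, while each library also holds RNA of the other cells of the dissected tissue. In such bulk RNA, fewer cells of a type and less RNA per cell cannot be told apart. *Sox2* had 355, 358 and 382 CPM (counts scaled to the effective library size) in its controls and 115, 150 and 151 CPM in its mutants. *Nr2f1* had 314, 373 and 383 CPM in its controls and 106, 152 and 102 CPM in its mutants. Every mutant pool was therefore below every control pool for the deleted gene. Total counts lay between 39293465 and 50095344 per library. The members together took 2668 to 5722 of them, or 58.5 to 137 CPM. Nothing in the sources ties pools to litters, days or separate extractions, and p-values measure only the spread between these pools.

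The promoters of the members are shown before their levels because promoters can hold sites through which such genes are known to be induced. RefSeq windows of GRCm38.p6, from 250 bases before to 50 bases after the annotated start, were given for 6 of the 10 members, *Fos*, *Fosb*, *Junb*, *Egr2*, *Npas4* and *Nr4a1*, and not for *Egr1*, *Egr3*, *Arc* and *Ier2*. The 180 bases before the start are printed 5′ to 3′ on the strand of the gene. Capitals mark TGACG or its reverse complement CGTCA, the core of the cAMP response element bound by CREB, and the CArG box bound by SRF. They also mark TATAAA, a spelling of the TATA box. *Egr2* has 5 windows, of which the third is shown.
Fos, chr12:85473710-85473889, plus strand: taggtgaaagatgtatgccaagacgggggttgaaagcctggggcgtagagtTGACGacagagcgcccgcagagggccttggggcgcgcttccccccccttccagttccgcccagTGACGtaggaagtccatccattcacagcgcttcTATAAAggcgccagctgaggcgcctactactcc
Fosb, chr7:19310046-19310225, minus strand: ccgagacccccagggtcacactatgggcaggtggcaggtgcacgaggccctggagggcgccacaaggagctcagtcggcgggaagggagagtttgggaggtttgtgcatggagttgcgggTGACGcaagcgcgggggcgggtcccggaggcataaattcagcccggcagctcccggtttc
Junb, chr8:84978749-84978928, minus strand: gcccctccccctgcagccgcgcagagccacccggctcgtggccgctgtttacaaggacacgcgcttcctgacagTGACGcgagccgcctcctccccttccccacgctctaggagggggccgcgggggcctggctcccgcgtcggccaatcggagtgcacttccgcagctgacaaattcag
Egr2, chr10:67537689-67537868, plus strand: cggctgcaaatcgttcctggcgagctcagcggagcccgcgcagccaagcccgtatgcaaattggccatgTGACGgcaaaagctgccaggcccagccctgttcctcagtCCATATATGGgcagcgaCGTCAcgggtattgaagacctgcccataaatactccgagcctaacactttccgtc
Npas4, chr19:4989972-4990151, minus strand: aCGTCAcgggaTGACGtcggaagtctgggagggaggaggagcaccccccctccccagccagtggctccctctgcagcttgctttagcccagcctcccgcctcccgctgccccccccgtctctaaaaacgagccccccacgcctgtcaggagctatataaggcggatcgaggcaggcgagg
Nr4a1, chr15:101266666-101266845, plus strand: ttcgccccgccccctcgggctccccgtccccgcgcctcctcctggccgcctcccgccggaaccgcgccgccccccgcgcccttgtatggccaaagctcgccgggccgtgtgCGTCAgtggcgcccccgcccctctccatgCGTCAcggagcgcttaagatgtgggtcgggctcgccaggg

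All 6 promoters held TGACG on one of the strands. The same letters were in 20.8% of the 32851 windows of the table and in at least 1 window of 23% of its 27025 genes. For *Egr2* the motif was in 3 of its 5 windows, which gave it more chances than a gene with 1 window. In *Fos* the matches began 129 and 66 bases before the start, in *Nr4a1* 4 matches were found between 233 and 40 bases before it, and in *Npas4* a pair on opposite strands lay 179 and 169 bases before it. The full palindrome TGACGTCA, which contains TGACG, was in 0 of the 6 and in 1.79% of all windows. The CArG box was found in *Egr2* only, among these 6, and in 1.63% of all windows. TATAAA was in *Fos*, 33 bases before the start, and in *Junb*, at the annotated start itself, against 13.6% of all windows. Only these exact letters were searched, so the letters TATATAAG in the printed *Npas4* sequence were not counted.

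Sites of the members' own products were searched as well, on both strands. The EGR site GCGNGGGCG was in *Fosb* and *Nr4a1* and in 5.55% of all windows. The AP-1 site, TGACTCA or TGAGTCA, which FOS and JUN proteins bind as pairs, was in 0 of the 6 and in 5.2% of all windows. For the deleted factors only the spellings given here were searched, so related spellings were not counted. The letters AGGTCA, a nuclear receptor site, were in 0 of the 6 against 16.3% of all windows. ACAAAG, a SOX site, was in 0 of the 6 against 18.7%. The printed *Fosb* sequence holds GGGTCA, which this search left out. A match is a description of letters in a window and does not show that a factor binds there.

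**Figure D1:**
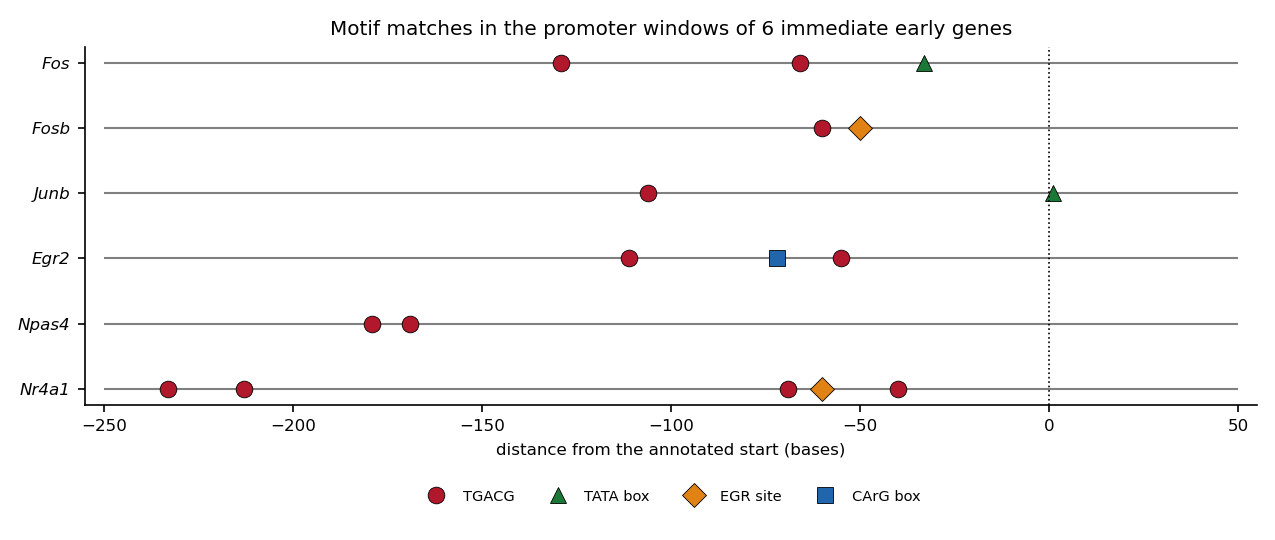
Motif matches in the promoter windows of the 6 members with a window. The horizontal axis is the distance in bases from the annotated start, each grey line is the window of a gene, and markers show the first base of each match on either strand. TGACG is present in all 6 and lies between 233 and 40 bases before the start.

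The 10 genes covered a wide range of levels at P0. Per kilobase of transcript, a scale on which genes can be compared, *Egr1* and *Nr4a1* stood highest in both control groups. *Egr1* encodes a zinc finger transcription factor and *Nr4a1* an orphan nuclear receptor. In *Sox2* controls *Egr1* had 13.3 ± 5.79 CPM per kb (SD, n = 3 here and below) and *Nr4a1* 11.5 ± 0.758, and their pools overlapped. *Ier2*, a nuclear protein induced by growth factors, followed with 7.99 ± 1.63 CPM per kb, then *Junb* with 4.17 ± 0.966, *Fos* with 2.93 ± 1.04 and *Npas4* with 1.69 ± 0.61. *Junb* and *Fos* overlapped, and so did *Fos* and *Npas4*. The lowest were *Egr3*, *Egr2*, *Arc* and *Fosb*, with 0.634 ± 0.105, 0.494 ± 0.125, 0.317 ± 0.05 and 0.176 ± 0.046 CPM per kb, of which *Egr3* and *Egr2* overlapped.

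In *Nr2f1* controls *Nr4a1* was placed before *Egr1*, at 10.6 ± 3.39 and 9.18 ± 4.28 CPM per kb, with overlapping pools. *Fosb* was again last, at 0.137 ± 0.115. *Arc* was ninth of the 10 in *Sox2* controls, eighth in *Nr2f1* controls and seventh in both mutants. Among the 14823 genes tested whose length was known, *Egr1* was above 67.0% of them in *Sox2* controls and *Fosb* above 3.93%. All of the values that follow are CPM, which are comparable between libraries for 1 gene.

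**Figure D2:**
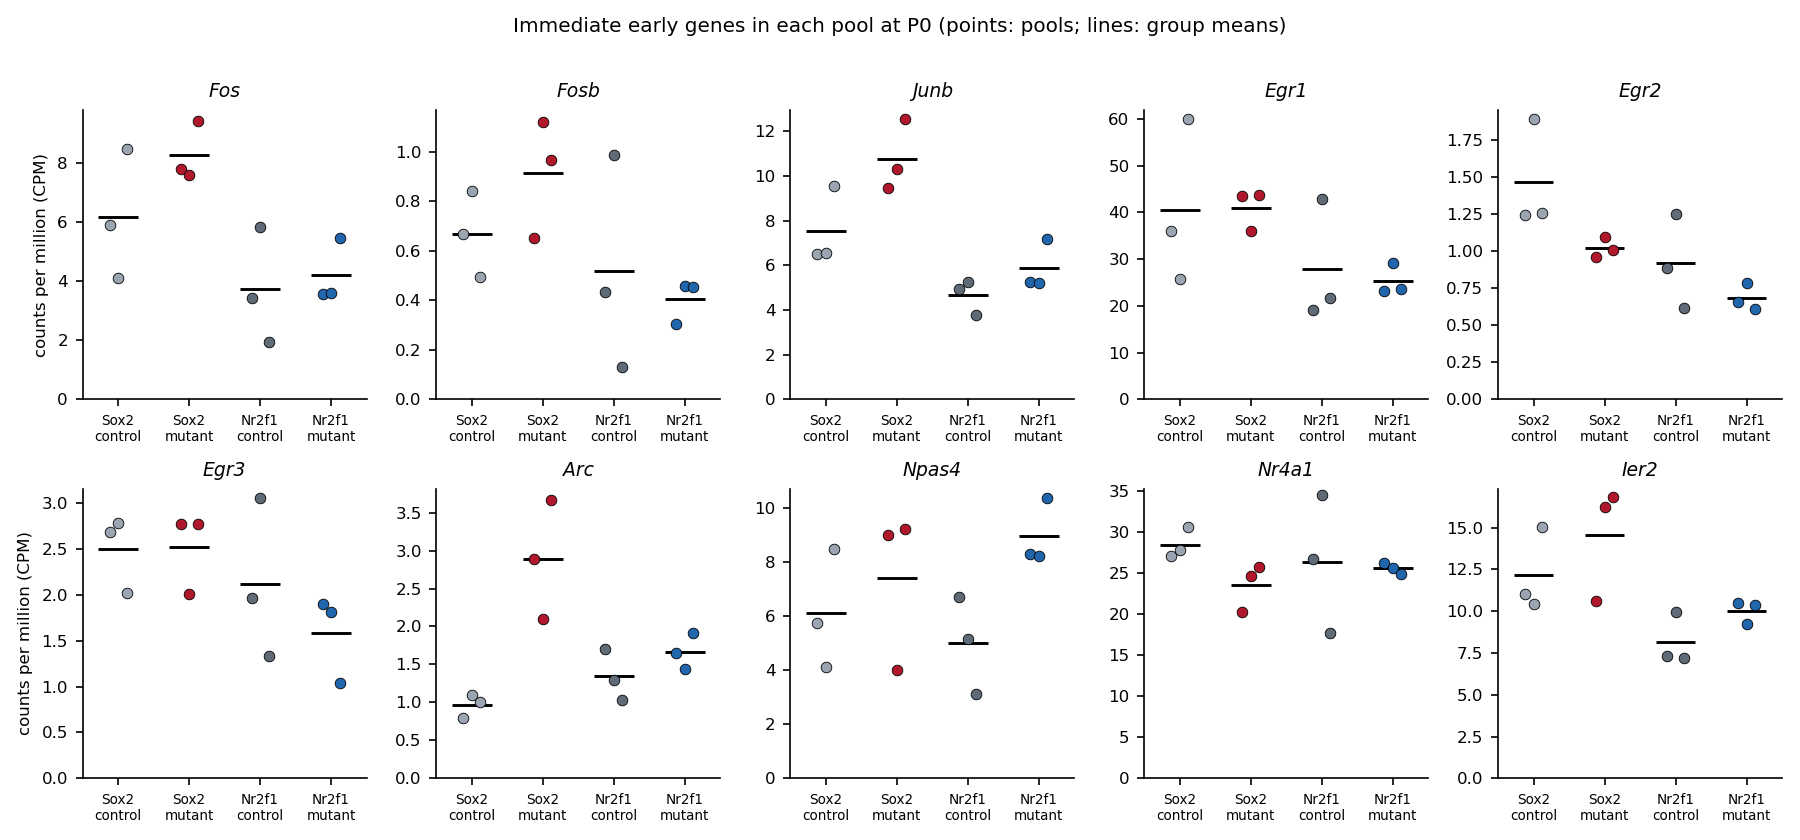
Level of each immediate early gene in the 12 pools. Each panel is a gene, the vertical axis is CPM from 0 with its own scale, points are pools and lines are the means of the 4 groups. *Arc* is the panel in which *Sox2* mutants, at 2.1 to 3.67 CPM, lie above all other pools, which lie between 0.8 and 1.91 CPM.

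The comparison of *Sox2* mutants with their controls asked which genes depend on *Sox2* in the dLGN. *Arc* rose, and it was the only member of 10 that passed FDR below 0.01, where FDR is the Benjamini-Hochberg adjusted p of the quasi-likelihood F-test of edgeR. Of all 15602 genes tested, 8.08% passed, 3.9% with a higher and 4.19% with a lower level in mutants, so that 1 of 10 is near the share over all genes. Disjoint groups, with no mutant pool inside the range of the controls, were found for *Egr2*, *Arc* and *Nr4a1*, 3 of 10, against 37.9% of all genes. The median log2 difference of the 10 was 0.27, against 0.00 for all genes, and 8 of the 10 were positive, against 50.1% of all genes.

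*Arc* had 0.8, 1.1 and 1.01 CPM in the control pools, from 36 to 47 counts per library. In the mutant pools it had 2.89, 2.1 and 3.67 CPM, from 92 to 167 counts. The lowest mutant pool was thus above the highest control pool, and the mutants spread more than the controls. The log2 difference was 1.57 ± 0.26 (SE), a 2.97-fold higher level (FDR = 0.00365). Leaving out pools in turn kept the difference between 1.36 and 1.76, but the call was lost without CTRL_1 (FDR = 0.0211), CTRL_2 (0.0144), MUT_1 (0.0101) or MUT_4 (0.0213). It was kept without CTRL_3 and without MUT_3.

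Marker lists of several cell types also differed between these pools. Of the 8 markers of pallial and hippocampal neurons, which lie next to the thalamus and are known for strong *Arc* expression, 7 had a positive difference in *Sox2* mutants (median 1.2, *Slc17a7* called higher and *Prox1* called lower). Their sum was 107, 97.4 and 68.9 CPM in the controls and 191, 73.6 and 123 CPM in the mutants. Without *Prox1*, which thalamic cells also express, the sum of the other 7 was 57.7, 39.1 and 25.7 CPM in the controls and 162, 47.2 and 94.1 CPM in the mutants. The mutant pool MUT_3, with the lowest *Arc*, also had the lowest pallial sum of the 3 on either count, which was within the range of the controls, so that the groups overlapped, and its *Arc* level of 2.1 CPM was still above every control. The part of pallial cells in the result was not tested. GABAergic markers summed to 86.9 to 131 CPM in the controls and 151 to 200.3 CPM in the mutants, with 0 of 7 called by the quasi-likelihood test of edgeR, 4 by its likelihood ratio test, 5 by DESeq2 and 7 at an unadjusted p below 0.05. No marker of these lists was at 0 in any pool.

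Microglial markers moved with the genotype too, with 8 of 9 called higher and sums of 109 to 130 CPM in the controls and 240 to 285 CPM in the mutants. Astrocyte markers were called higher for 6 of 8, with sums of 1819 to 2217 CPM against 2789 to 3227 CPM. The sums were also apart for the oligodendrocyte lineage, at 563 to 695 CPM in the controls and 701 to 810 CPM in the mutants with 1 of 7 called, and for dividing cells, at 138 to 185 CPM and 196 to 232 CPM with 0 of 5 called by edgeR's quasi-likelihood test, 4 at an unadjusted p under 0.05 and 1 called by DESeq2. Markers of thalamic glutamatergic neurons, the cells in which the deletion takes place, summed to 1799 to 2191 CPM in the controls and 1623 to 1642 CPM in the mutants, with 5 of 9 called lower and 1 higher. The part of these cell types in the *Arc* result was not tested.

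Among the AP-1 genes, *Junb* encodes a partner of FOS proteins. It had 6.51, 6.56 and 9.56 CPM in *Sox2* controls and 9.47, 10.3 and 12.5 CPM in *Sox2* mutants. The highest control pool lay just above the lowest mutant pool, and the log2 difference of 0.51 ± 0.17 missed the threshold (FDR = 0.0637). Without the control pool CTRL_3 it was 0.72 and passed (FDR = 0.00714). *Fos*, the founding member of AP-1, had 5.91, 4.11 and 8.48 CPM in controls and 7.79, 7.59 and 9.43 CPM in mutants. *Fosb*, its close relative, had 0.493 to 0.841 CPM in controls and 0.651 to 1.12 CPM in mutants. Their differences of 0.42 ± 0.23 and 0.44 ± 0.33 did not pass (FDR = 0.216 and 0.372), and the groups overlapped.

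The EGR genes, which encode zinc finger factors bound to GC-rich sites, gave no call. *Egr1* had 35.9, 25.7 and 59.9 CPM in *Sox2* controls and 43.5, 35.9 and 43.6 CPM in mutants. All 3 mutant pools were inside the range of the controls, and the difference was 0.02 ± 0.24 (FDR = 0.971). *Egr2*, which is also needed in myelinating Schwann cells, had 1.25, 1.89 and 1.26 CPM in controls and 0.964, 1.1 and 1.01 CPM in mutants. Its groups did not overlap, with mutants below controls, and the difference of -0.52 ± 0.26 did not pass (FDR = 0.184). *Egr3* had 2.02 to 2.78 CPM in controls and 2.01 to 2.77 CPM in mutants, with a difference of 0.00 ± 0.22 (FDR = 0.993).

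*Nr4a1* was tight among *Sox2* controls, at 27, 27.8 and 30.6 CPM, and had 20.3, 24.7 and 25.8 CPM in mutants. The groups did not overlap, and the difference of -0.28 ± 0.10 did not pass (FDR = 0.0841). *Npas4*, a transcription factor that neurons induce through calcium entry, had 5.74, 4.11 and 8.48 CPM in controls and 9.01, 4 and 9.24 CPM in mutants. Both the lowest and the highest of these 6 pools were mutants, and the difference was 0.28 ± 0.33 (FDR = 0.583). In CTRL_2 and CTRL_3 its counts of 176 and 344 were equal to those of *Fos* in the deposited table. *Ier2* had 10.4 to 15 CPM in controls and 10.6 to 16.8 CPM in mutants, with a difference of 0.25 ± 0.19 (FDR = 0.372). At an unadjusted p below 0.05, 3 of the 10 passed, *Arc*, *Junb* and *Nr4a1*, against 35.0% of all genes.

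**Figure D3:**
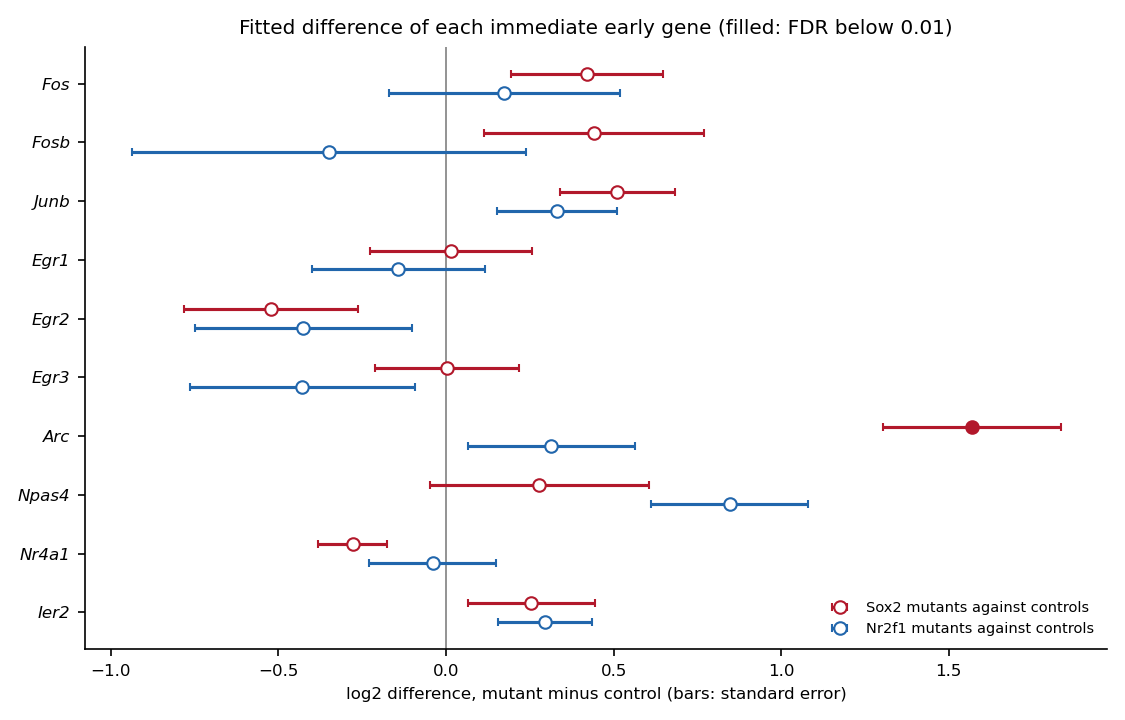
Fitted log2 difference between mutants and controls for each member, on the horizontal axis, in the *Sox2* line (red) and the *Nr2f1* line (blue). Bars are standard errors and filled points passed FDR below 0.01. *Arc* in the *Sox2* line, at 1.57, is the filled point, and *Npas4* at 0.85 is the largest difference in the *Nr2f1* line.

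In *Nr2f1* mutants 0 of the 10 members passed the test, against 2.54% of the 15600 genes tested, 1.22% higher and 1.32% lower. By DESeq2, and by the likelihood ratio test of edgeR, 1 passed, *Npas4*, and at an unadjusted p below 0.05 in the quasi-likelihood test it was also the only member, against 24.6% of all genes. *Npas4* was likewise the only member whose groups did not overlap, against 28.7% of all genes. The median log2 difference of the 10 was 0.07, against 0.01 for all genes, with 5 positive and 5 negative.

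*Npas4* had 6.72, 5.15 and 3.14 CPM in *Nr2f1* controls, from 143 to 280 counts, and 8.3, 8.23 and 10.4 CPM in *Nr2f1* mutants, from 328 to 478 counts. Every mutant pool was above every control pool. The log2 difference was 0.85 ± 0.23, or 1.8-fold, with FDR = 0.0594 in the quasi-likelihood test. It was 0.84 with FDR = 0.0094 in the likelihood ratio test and 0.84 with FDR = 0.00196 in DESeq2. Over all 13 alternatives the FDR lay between 0.00196 and 0.183 and the difference was positive in each.

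In these pools several marker sums were also apart between the groups. Astrocyte markers summed to 1616 to 1672 CPM in *Nr2f1* controls and 1794 to 1976 CPM in mutants, with 1 of 8 called. Microglial markers summed to 88.5 to 106 CPM and 117 to 151 CPM, with 0 of 9 called by the quasi-likelihood test of edgeR, 6 at an unadjusted p under 0.05 and 4 called by DESeq2. Markers of the oligodendrocyte lineage summed to 493 to 513 CPM and 528 to 563 CPM, with 1 of 7 called. Those of neurons of any kind were lower in mutants, at 6742 to 7365 CPM against 7447 to 7607 CPM, with 0 of 8 called by the quasi-likelihood test of edgeR, 3 at an unadjusted p under 0.05 and 1 called by DESeq2. The pallial sum was 87.4 to 98.4 CPM in controls and 142 to 175 CPM in mutants, but *Prox1* made up that gap, and the other 7 pallial markers overlapped, at 28.8 to 37.3 CPM and 27.6 to 36.2 CPM. Meningeal markers overlapped as well, at 705 to 1075 CPM and 1022 to 2373 CPM. Sums of thalamic glutamatergic markers overlapped, at 2169 to 2320 CPM and 2192 to 2464 CPM, although 2 of 9 were called higher and 2 lower. Endothelial sums overlapped too, at 264 to 316 CPM and 314 to 425 CPM. Of the 7 endothelial markers 0 were called by the quasi-likelihood test of edgeR, 7 had an unadjusted p under 0.05 and 3 were called by DESeq2. The part of these cell types in the *Npas4* values was not tested.

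The remaining members of the *Nr2f1* line overlapped between the groups. *Junb* had 4.94, 5.28 and 3.79 CPM in controls and 5.24, 5.2 and 7.18 CPM in mutants, a difference of 0.33 ± 0.18 (FDR = 0.289). *Arc* had 1.7, 1.29 and 1.03 CPM in controls and 1.64, 1.44 and 1.91 CPM in mutants, a difference of 0.31 ± 0.25 (FDR = 0.486). For both genes the highest control pool was above the lowest mutant pool. *Ier2* differed by 0.30 ± 0.14 (FDR = 0.228), with 7.19 to 9.96 CPM in controls and 9.22 to 10.5 CPM in mutants. *Fos* had 3.43, 5.83 and 1.93 CPM in controls and 3.57, 3.6 and 5.47 CPM in mutants, and its difference of 0.17 ± 0.34 was smaller than its SE (FDR = 0.802).

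Wide controls were common to the members in this line. *Egr1* had 19.2, 42.8 and 21.6 CPM in controls, against 23.2, 29.1 and 23.6 CPM in mutants, and a difference of -0.14 ± 0.26 (FDR = 0.782). *Nr4a1* had 26.8, 34.5 and 17.7 CPM in controls and 26.2, 25.7 and 24.9 CPM in mutants, and a difference of -0.04 ± 0.19 (FDR = 0.924). In both genes the mutants lay inside the range of the controls. *Fosb* had 0.432, 0.985 and 0.132 CPM in controls, the last from 6 counts, and 0.304, 0.459 and 0.456 CPM in mutants. For *Fosb*, *Egr2* and *Egr3* the differences were -0.35 ± 0.59, -0.43 ± 0.32 and -0.43 ± 0.34 (FDR = 0.764, 0.466 and 0.478). Without the control pool CTRL_D the differences of *Fosb*, *Egr1* and *Nr4a1* turned to 0.55, 0.31 and 0.21, and none of them passed the test.

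To ask whether the deletions acted differently, the line-by-genotype interaction was fitted over all 12 libraries. None of the 10 members passed (0 of 10, quasi-likelihood test of edgeR, against 1.44% of 15989 genes). By the same test 1 member had an unadjusted p below 0.05, against 16.2% of all genes. That gene was *Arc*, whose difference was 1.26 ± 0.36 larger on the log2 scale in *Sox2* than in *Nr2f1* mutants (FDR = 0.0809, quasi-likelihood test of edgeR). DESeq2 and the likelihood ratio test called 0 as well. A *Sox2*-specific change of *Arc* is therefore not shown at this threshold. *Npas4* went the other way, with -0.56 ± 0.46 (FDR = 0.634), and the other 8 lay between -0.23 and 0.80. *Sox2* itself was also lower in *Nr2f1* mutants, at 213 to 281 CPM against 346 to 377 CPM in their controls. Its log2 difference there was -0.55 ± 0.09 (FDR = 0.00635, quasi-likelihood test of edgeR). *Nr2f1* in *Sox2* mutants differed by -0.39 ± 0.13 and did not pass the same test (FDR = 0.0559).

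The control groups of the lines differ in no deleted gene, yet 9 of the 10 members were higher in *Sox2* controls, against 52.2% of all genes. The median log2 difference of the members was 0.45, against 0.01 for all genes. None passed FDR below 0.01 in either test of edgeR or in DESeq2 (0 of 10), against 0.469% of all genes in the quasi-likelihood test, and 4 had an unadjusted p below 0.05, against 19.0% of all genes. *Junb*, at 6.51 to 9.56 CPM in *Sox2* controls and 3.79 to 5.28 CPM in *Nr2f1* controls, differed by 0.69 ± 0.19 (FDR = 0.0804). Groups that did not overlap were found for 2 of the 10, against 23.1% of all genes. *Fos* differed by 0.72 ± 0.33, *Egr2* by 0.67 ± 0.28 and *Arc*, the only negative value, by -0.47 ± 0.27 (FDR = 0.262, 0.219 and 0.361). Line, litters and any difference in collection cannot be told apart here. This gap between controls is larger than the median difference of the 10 members between mutants and controls in either line. The members often moved together between pools, and CTRL_E was the lowest *Nr2f1* control for 9 of the 10. The 9 higher members are therefore not separate observations, and the part of CTRL_E in the gap was not tested.

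The spread between pools of a group was large for these genes. The SD of log2 CPM within groups, pooled over the 12 libraries, lay between 0.26 for *Junb* and 0.71 for *Fosb*, with a median of 0.36, against a median of 0.13 over 15397 genes. All 10 members were above that median and 5 of them, *Fosb*, *Npas4*, *Fos*, *Egr1* and *Egr3*, were above the 90th percentile. The same 5 were above it in the *Nr2f1* line alone. In the *Sox2* line alone 2 were, *Egr1* and *Npas4*. There all 10 were still above the median, with *Nr4a1* at the 54.5th percentile. Low counts alone also raise the spread. The biological coefficient of variation fitted by edgeR was therefore set against its trend at the same abundance, an alternative added after seeing the data. It exceeded the trend for 8 of 10 members, all but *Egr2* and *Arc*, and for 28.4% of all genes. For *Egr1* it was 25.2% against a trend of 9.01%, for *Npas4* 27.8% against 13.7% and for *Fos* 27.9% against 14.5%.

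The pools that stood apart did so for most members at a time. Among the *Nr2f1* controls, CTRL_D was the highest of the 3 pools for 8 of the 10 genes and CTRL_E the lowest for 9. *Fos* was 3.02-fold higher in the highest than in the lowest of these pools, *Fosb* 7.49-fold, *Egr1* 2.23-fold and *Nr4a1* 1.95-fold. Among the 3 *Nr2f1* mutant pools the ratio of the highest to the lowest was smaller than among the controls for all 10 members. It lay between 1.05 for *Nr4a1* and 1.82 for *Egr3*, against 1.38 to 7.49 in the controls, and for *Junb* it was nearly the same, at 1.38 and 1.39. In the *Sox2* line it was smaller among mutants for 4 of 10. Among *Sox2* controls CTRL_3 was the highest for 6 members, and among *Sox2* mutants MUT_4 was the highest for 7. The total count of CTRL_D was 50095344, the largest of all, and that of CTRL_E 46844439.

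Marker sums of CTRL_D and CTRL_E differed less than most members did, except for the choroid plexus, at 46.4 CPM in CTRL_D and 76.1 CPM in CTRL_E. Markers of thalamic glutamatergic neurons summed to 2169 CPM in CTRL_D and 2320 CPM in CTRL_E, and those of neurons of any kind to 7447 and 7607 CPM. Heat shock genes, which handling can also induce, summed to 2702 and 2650 CPM. Endothelial markers summed to 316 and 272 CPM. What set the levels of the members in these pools was not tested.

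**Figure D4:**
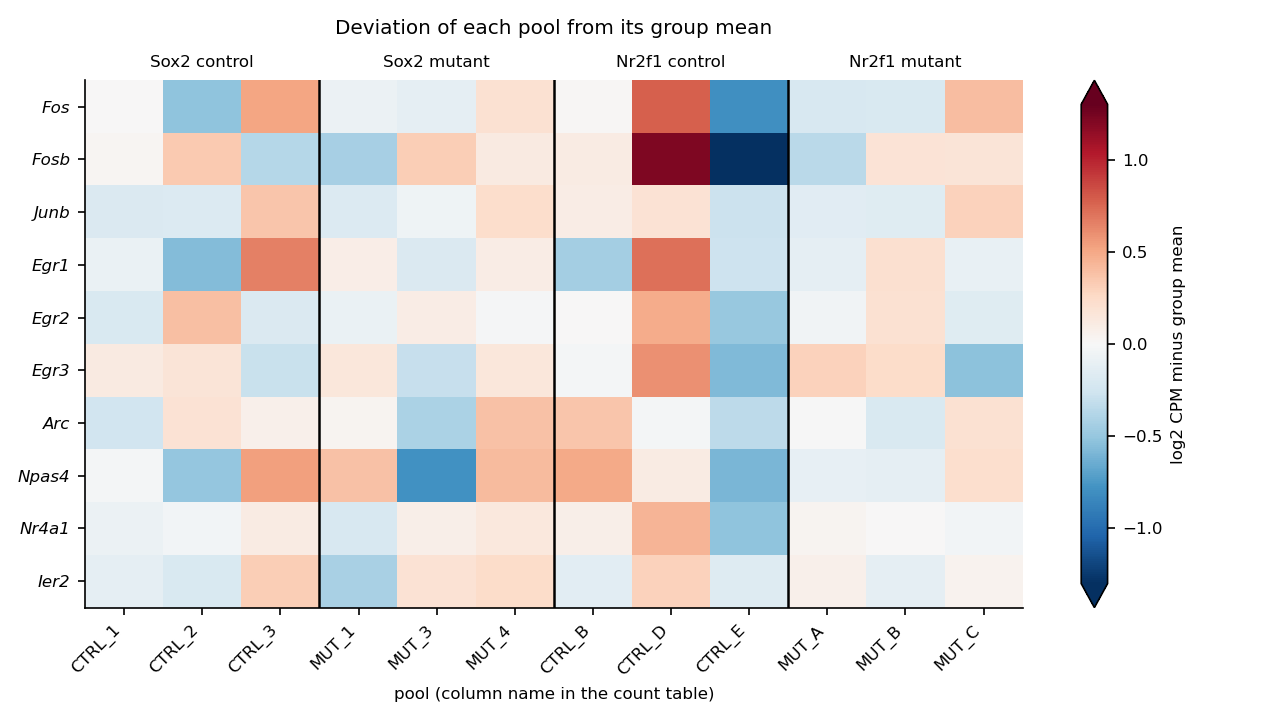
Deviation of each member in each pool from the mean of its group, as log2 CPM, with genes in rows and the 12 pools in columns (red above and blue below the group mean). The column of CTRL_D is red for 9 of 10 members and that of CTRL_E is blue for all 10.

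Deviations from the group means were compared between members over the 12 libraries, as a description. Over the 45 pairs the median Pearson correlation was 0.40, with 42 pairs positive and 21 above 0.5, against a median of 0 over all pairs of genes. The closest pairs were *Fosb* with *Egr2* (r = 0.87), *Fosb* with *Nr4a1* (0.86) and *Fos* with *Junb* (0.85). *Arc* was closest to *Npas4* (0.71). The pairs shared the libraries, and the *Nr2f1* controls weighed heavily. Within the *Nr2f1* line the median was 0.68 over 6 libraries, within the *Sox2* line 0.15 over 6, and without the *Nr2f1* controls 0.07 over 9, with 26 of 45 pairs positive. The median correlation was thus low outside that group.

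The genes whose deviations were most like the mean of the members were *Apln* (r = 0.93 over 12 libraries), which encodes a peptide hormone, *Opa3* (0.93), *Spag4* (0.92), *Tex9* (0.92), *Snhg8* (0.92), *Nktr* (0.91), *Pim3* (0.91) and *Ten1* (0.91). None of these 8 passed FDR below 0.01 in either line. They were picked as the highest r of the non-members among 15397 genes, and such a selection itself favours high values. The likeness was not computed without the *Nr2f1* controls, which weighed heavily in the pairs of members. Of the lists of related genes, the other rapid transcription factors had a median correlation of 0.59 with the members over 19 genes and the feedback inhibitors 0.46 over 13. The later activity response genes had 0.25 over 16, the heat shock genes 0.20 over 10, the upstream kinases and factors -0.18 over 26, and all genes 0.01. Some cell type lists were about as far from 0. Dividing cells had 0.44 over 5 markers, endothelial cells 0.42 over 7, thalamic glutamatergic neurons -0.41 over 9 and neurons of any kind -0.36 over 8. Among the genes of the related lists *Dusp5* (0.91), *Dusp6* (0.87), *Bdnf* (0.83) and *Egr4* (0.83) were the closest. *Dusp5* and *Dusp6* encode phosphatases that switch off ERK, the kinase upstream of several members.

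Genes of the same response that are no members were counted from lists of 77 genes in 4 classes. Of the other rapid transcription factors, 19 of 20 were tested and 2 fell in *Sox2* mutants, with a median log2 difference of 0.10 over the list. *Egr4*, the fourth EGR gene, had 1.71, 1.1 and 2.34 CPM in controls and 0.41, 0.594 and 0.462 CPM in mutants, a log2 difference of -1.81 ± 0.34 (FDR = 0.0059). It thus fell in the line in which *Arc* rose. The call was kept without CTRL_2 and lost when any of the other pools was left out (FDR up to 0.034 over all alternatives). *Nfil3*, a bZIP repressor, differed by -0.79 ± 0.10 (FDR = 9.28e-04). In *Nr2f1* mutants 2 fell, *Nfil3* by 0.46 and *Klf6*, the most abundant of the list, by 0.46 (FDR = 0.00703 and 0.00497), with a list median of 0.13.

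Feedback inhibitors dampen the response, some of them by removing phosphate from kinases or by destroying RNA. In *Sox2* mutants 4 of 13 were called, 3 lower and 1 higher. *Dusp5* had 4.27, 4.04 and 4.49 CPM in controls and 1.57, 1.42 and 2.07 CPM in mutants, a difference of -1.34 ± 0.19 (FDR = 0.0015). *Dusp2*, another kinase phosphatase, had 11.2, 12.7 and 9.39 CPM in controls and 5.54, 5.58 and 4.88 CPM in mutants, a difference of -1.07 ± 0.14 (FDR = 0.00101). For both genes every mutant pool was below every control pool. *Trib1* fell by 0.57 and *Spred1*, the most abundant of the list, rose by 0.34 (FDR = 0.00775 and 0.00653), and both calls were lost under some alternatives (FDR up to 0.0401 and 0.0428). The list median was 0.01. In *Nr2f1* mutants 0 of the 13 passed the quasi-likelihood test of edgeR, 2 passed its likelihood ratio test, 2 passed DESeq2, and 3 had an unadjusted p below 0.05.

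The later activity response genes were listed as genes that follow the transcription factors. Some encode secreted or synaptic proteins and others do not, and several are also markers of thalamic neurons. Of 17 tested in *Sox2* mutants, 7 fell and 0 rose, and the list median was -0.12. They were *Vgf*, a secreted neuropeptide precursor and the most abundant of the list (-1.88 ± 0.15), *Sgk1*, a kinase (-1.32 ± 0.09), *Cck*, a neuropeptide (-1.16 ± 0.11), *Rasd1*, a small G protein (-1.14 ± 0.16), *Nefm*, a neurofilament (-1.09 ± 0.10), *Nrn1*, a surface protein that promotes neurites (-0.71 ± 0.09), and *Plk2*, a kinase (-0.64 ± 0.07). In *Nr2f1* mutants, with a list median of -0.38, 5 fell, *Cck* (-2.50 ± 0.24), *Rasd1* (-1.65 ± 0.26), *Vgf* (-1.61 ± 0.21), *Nefm* (-1.09 ± 0.16) and *Plk2* (-0.38 ± 0.05). In the same mutants 2 rose, the synaptic pentraxin *Nptx1* (0.76 ± 0.09) and the granin *Scg2* (0.64 ± 0.05). FDR over these calls of the quasi-likelihood test lay at or below 0.00568 in each line. Of all genes tested, 4.19% were called lower and 3.9% higher in *Sox2* mutants, and 1.32% lower and 1.22% higher in *Nr2f1* mutants. The lines have separate controls, and 5 genes of the list fell in both. The share of all genes that fell in both was not computed, and the list was chosen with earlier results of these data known.

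Of 26 upstream kinases, channels and factors, 5 were called in *Sox2* mutants. *Camk4*, the nuclear calcium kinase that phosphorylates CREB and the most abundant of the list, had 603, 540 and 472 CPM in controls and 207, 218 and 199 CPM in mutants, a difference of -1.38 ± 0.10 (FDR = 3.88e-05). *Cacna1c* and *Cacna1d*, the L-type calcium channels, fell by 0.80 and 0.55, and *Camkk2*, the kinase above CAMK4, by 0.52. *Mkl2*, a coactivator of SRF, rose by 0.41. In *Nr2f1* mutants *Mef2c* (-0.98 ± 0.09), *Camk4* (-0.58 ± 0.08) and *Cacna1c* (-0.34 ± 0.06) fell, and *Mkl2* (0.41 ± 0.07), *Camk2a* (0.39 ± 0.06) and *Cacna1d* (0.31 ± 0.05) rose. The list medians were -0.02 and -0.03.

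Over the 4 classes, 18 of 75 tested genes were called in *Sox2* mutants and 15 of 75 in *Nr2f1* mutants, against 8.08% and 2.54% of all genes. These lists were chosen with earlier results of these data known, so the gap from all genes does not test an enrichment. With the heat shock genes the calls were 19 and 16 of 85. Of the 19 in the *Sox2* line, 14 were called under every alternative, and *Egr4*, *Trib1*, *Spred1*, *Mkl2* and *Bag3* were not. The 16 in the *Nr2f1* line fell to 4 without CTRL_B, 4 without CTRL_D, 6 without CTRL_E, 5 without MUT_A and 7 without MUT_C, and were 18 without MUT_B. Of them *Cck*, *Nptx1*, *Scg2* and *Mef2c* were called under every alternative.

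Of 10 heat shock genes, listed as a sign of handling, *Bag3* rose in *Sox2* mutants (0.76 ± 0.11, FDR = 0.00189) and *Hspa1b* fell in *Nr2f1* mutants (-0.74 ± 0.11, FDR = 0.00487). *Hspa1b* has a near-identical copy, *Hspa1a*, between which reads could have been split. *Hspa8*, the most abundant of the list, differed by -0.09 ± 0.07 and -0.07 ± 0.08 (FDR = 0.393 and 0.643). The summed level of the list was 2596 to 2701 CPM in *Sox2* controls and 2407 to 2440 CPM in *Sox2* mutants.

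**Figure D5:**
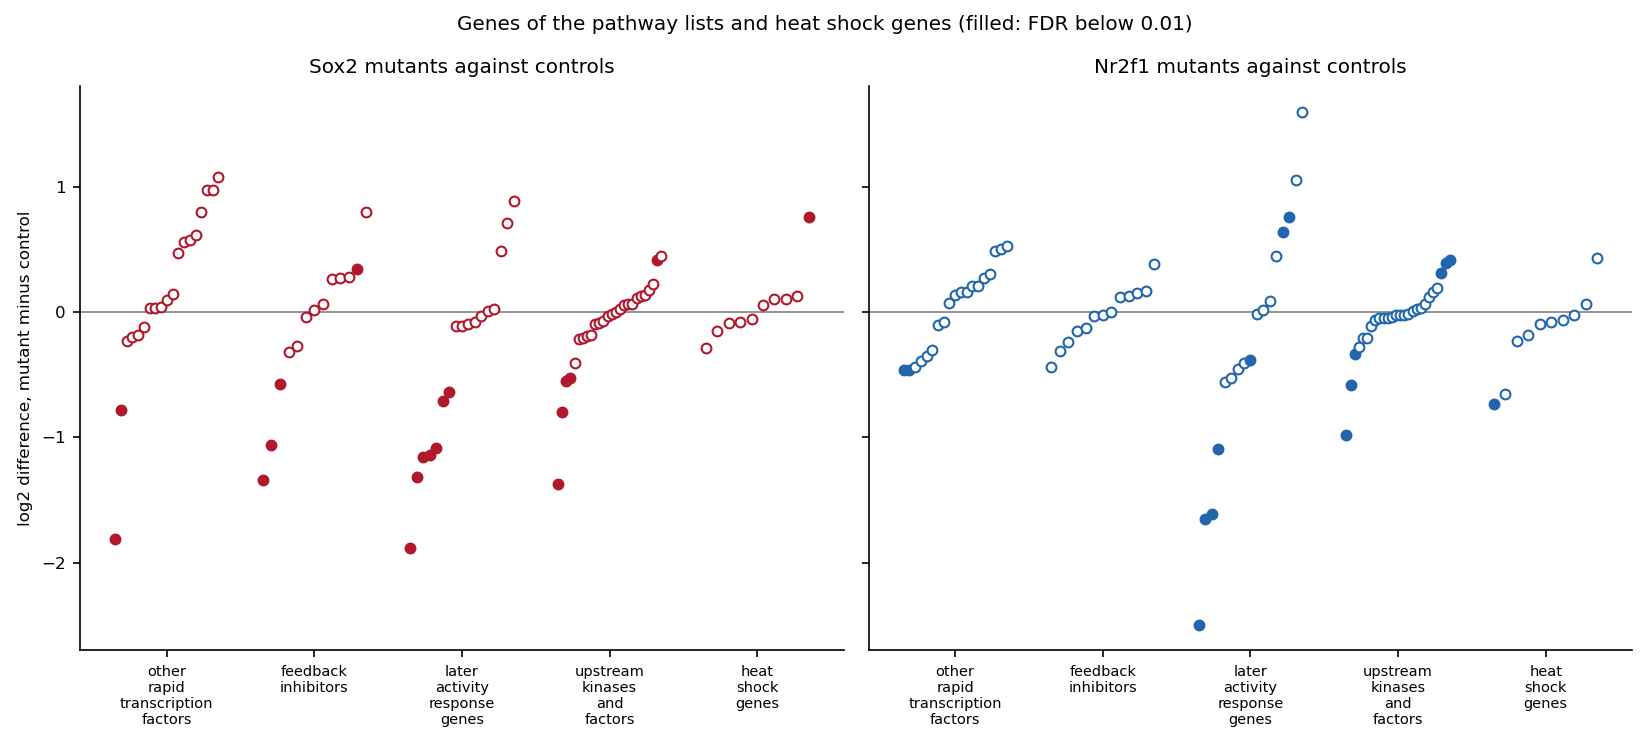
Log2 difference between mutants and controls, on the vertical axis, of each tested gene in the 4 pathway lists and the heat shock list, in the *Sox2* line (left) and the *Nr2f1* line (right). Points are genes ordered by value within a list and filled points passed FDR below 0.01. In *Sox2* mutants the 7 filled points of the later response genes are all below 0, down to -1.88.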

How the data were processed

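RNA-seq was analysed from 12 libraries of P0 dLGN in 4 groups of 3. The authors aligned reads with STAR to the mouse RefSeq transcriptome and deposited the RSEM expected counts per gene, not normalized, in 1 table per line, and the submitters' processing notes name mm10. Of these expected counts 7.77% were not whole, and all were rounded. RSEM shares ambiguous reads between genes, which could affect near-identical copies. Columns were mapped to groups by their names.

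Rounded counts passed through filterByExpr (minimum count 10, total 15) and TMM, and edgeR 4.0.16 in R 4.3.3 gave quasi-likelihood F-tests of mutants against the controls of their own line, with Benjamini-Hochberg adjustment over all genes and a threshold of 0.01. The interaction of line and genotype and the difference between controls came from a fit over 12 libraries. The same 12 libraries gave the CPM and the log2 CPM (prior count 2). Values are mean ± SD, or log2 difference ± SE. With 3 pools against 3, an exact permutation test of a gene cannot go below p = 0.1. Transcript lengths, known for 96.3% of the genes, came from GENCODE M21 on GRCm38, and promoter windows from RefSeq on GRCm38.p6.

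The members and lists were chosen with earlier results of these data known. Named were all members, each gene of the pathway and heat shock lists that was called or most abundant, the deleted genes, the 8 genes most like the members, and markers whose list moved with a member. Alternatives were other filters, upper quartile and relative log expression scaling, the likelihood ratio test, DESeq2 1.42.0, FDR below 0.05, a fit over all libraries and leaving out each library. Those chosen after seeing the data were the trend of the coefficient of variation, the pairs within a line or without the *Nr2f1* controls, the pallial sum without *Prox1*, and the list counts without each library. The tests were tested on simulated data.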

Additional observations from a re-analysis of the deposited data

Results flagged for a closer look

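For 4 genes of the pathway lists, and for 0 of the 10 immediate early genes, the effect of the deletion differed between the lines at FDR below 0.01 in the interaction test of edgeR. *Dusp2* had a log2 difference 1.05 lower in *Sox2* than in *Nr2f1* mutants (-1.05 ± 0.18, FDR = 0.00395), and its *Nr2f1* mutants had 10.6, 10.6 and 9.33 CPM against 9.19, 11.3 and 10.1 CPM in controls. *Sgk1* differed by -0.86 ± 0.13 (FDR = 0.00257) and *Camk4* by -0.79 ± 0.13 (FDR = 0.00401), each with lower levels in both mutants. *Cacna1d* differed by -0.86 ± 0.08 (FDR = 4.42e-05), with a lower level in *Sox2* and a higher level in *Nr2f1* mutants. Over 18 alternatives the call was kept in 18 for *Cacna1d*, 15 for *Sgk1*, 11 for *Dusp2* and 9 for *Camk4*, and each loss came from leaving out a library.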

How the results depend on the processing

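Over the alternatives, 407 of 438 differences of a single member kept their direction and their side of the threshold, 24 reversed, 4 lost and 3 gained the call, and each reversal came from leaving out a library and was not called. The count of members called in *Sox2* mutants was 0 to 2 without 1 library, where *Arc* was lost or *Junb* joined it. In *Nr2f1* mutants it was 1 by the likelihood ratio test and 1 by DESeq2, *Npas4* in each, in place of 0. Without 1 library, the difference in *Sox2* mutants ranged from -0.23 to 0.41 for *Egr1* and from -0.12 to 0.14 for *Egr3*. In *Nr2f1* mutants it ranged from -0.14 to 0.66 for *Fos*, -0.80 to 0.55 for *Fosb*, -0.35 to 0.31 for *Egr1* and -0.26 to 0.21 for *Nr4a1*. The interaction ranged from -0.22 to 0.58 for *Fos*, -0.091 to 1.26 for *Fosb*, -0.28 to 0.55 for *Egr1*, -0.38 to 0.15 for *Egr2* and -0.20 to 0.14 for *Ier2*. Calls over the pathway and heat shock lists in *Nr2f1* mutants were 25 by DESeq2 and 4 to 18 without 1 library, in place of 16. The median correlation between members was 0.15 in the *Sox2* line, 0.68 in the *Nr2f1* line and 0.066 without the *Nr2f1* controls. The cause of these shifts was not tested. The median spread between pools lay between 0.32 and 0.39 under all of its alternatives. At 6 to 167 counts per library, *Fosb*, *Egr2*, *Egr3* and *Arc* are the members most limited by depth. No paired analysis was possible because nothing in the sources ties pools to litters. The columns could also not be matched to the replicate numbers of the labels.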

Other observations

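Some genes of the response that did not pass the test had large differences, and they are named here after their values were seen. *Nr4a3* and *Nr4a2*, the relatives of *Nr4a1*, had 5.89, 5.23 and 3.57 CPM and 3.49, 2.55 and 1.70 CPM in *Sox2* controls. In the mutant pools MUT_1, MUT_3 and MUT_4 *Nr4a3* had 17.2, 4.75 and 9.26 CPM and *Nr4a2* 6.92, 3.18 and 5.21 CPM. The log2 differences were 1.08 ± 0.39 and 0.97 ± 0.32 (edgeR FDR = 0.0812 and 0.0593). Across these mutant pools both followed the order of the pallial marker sums, 191, 73.6 and 123 CPM, whereas *Arc* was highest in MUT_4. The part of pallial cells in these values was not tested.

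*Bdnf*, a neurotrophin that activity induces, had 1.34, 2.03 and 0.877 CPM in *Nr2f1* controls and 2.61, 2.73 and 3.51 CPM in *Nr2f1* mutants, so that the groups did not overlap, as for *Npas4*. Its difference of 1.05 ± 0.29 did not pass (edgeR FDR = 0.0585), and in the *Sox2* line it was 0.02 ± 0.20. *Egr4* had 1.03, 1.03 and 0.0658 CPM in *Nr2f1* controls, the lowest again in CTRL_E, and 0.481, 0.59 and 0.542 CPM in mutants.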
